A study of Rattus norvegicus with 8 samples.

Results

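S100a8 and S100a9 encode the 2 subunits of calprotectin, and their RNA was followed here across the zones of the rat femur growth plate. The array carries 1 probe set for each gene that the platform annotation assigns to that gene alone, so the 2 probe sets described are 2 of 31042 analysed, or 2 of 14217 genes with a name. The genes were chosen by their measured levels on these same arrays, which earlier results had shown to be high in the reserve zone. Their differences between zones are therefore given as a description, with no test.

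S100 proteins are small calcium-binding proteins with EF-hand motifs. S100A8 and S100A9 pair into calprotectin, which fills much of the cytosol of neutrophils and is also made by monocytes. Released calprotectin binds zinc and manganese, which starves microbes of these metals, and it signals through Toll-like receptor 4 and the receptor for advanced glycation end products. In mouse, both proteins have also been described in chondrocytes and bone cells.

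The study measured RNA of Rattus norvegicus femur with an Affymetrix array, in the reserve, hypertrophic, perichondral and proliferative zones of the growth plate, the cartilage by which long bones lengthen. Each zone has 1 array from rats aged 46 days and 1 from rats aged 42 days, and each array received RNA pooled from 3 rats, so every zone has n = 2 arrays (SDs below are over these 2). For every array the strain and sex of the rats, the way zones were separated and whether zones came from the same animals are not given in the sources used here. Both ages serve as replicates of a zone in the submitted design, and the spread between replicates also holds any difference between ages.

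The deposited values are linear array intensities, scaled so that the trimmed mean of each array is about equal (500.08 to 500.16). They were taken to log2(intensity + 16) and quantile normalized, and values below are on this scale unless called intensities. It understates differences of dim genes. A yardstick for dim signal came from 30 genes typical of other organs. Its height, 9.41, is the 0.95 quantile over all their values and is named the other-organ level here. Col2a1, the main collagen of cartilage, was between 15.86 and 17.80 in all 8 arrays. RNA quality can be read from the Gapdh control spots as the signal at the 3' end over that at the 5' end, which was 3.96 and 8.15 in reserve arrays at 46 and 42 days and between 3.63 and 7.10 in the other 6 arrays. In tissue pools of this kind, fewer cells of a type and less RNA per cell cannot be told apart.

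S100a8 and S100a9 are neighbours in a run of 11 S100 genes on rat chromosome 2, from S100a1 to S100a9, with S100a7a on the far side of S100a8 and Pglyrp4 on the far side of S100a9 (RefSeq, GRCr8). The RefSeq table of promoters held S100a9. The 250 bases before its start are shown because they lie at the gene with the widest gap between reserve and other arrays, at chr2:178490623-178490872 on the minus strand, and capitals mark motifs found by search on both strands.
S100a9: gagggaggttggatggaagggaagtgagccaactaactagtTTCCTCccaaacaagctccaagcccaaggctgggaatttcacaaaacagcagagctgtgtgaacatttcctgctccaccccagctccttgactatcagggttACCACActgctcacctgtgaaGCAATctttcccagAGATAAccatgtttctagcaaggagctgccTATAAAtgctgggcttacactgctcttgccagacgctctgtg

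The motifs searched were short forms of sites for the general transcription machinery and for factors of blood cells, picked with the results known. TATAAA, the TATA box, begins 42 bases before the start, and 12.9% of all 33469 promoters hold it in a window of this length. GCAAT, a partial site of C/EBP factors, begins 86 bases before the start (23.2% of promoters), and AGATAA, a site of GATA factors, 72 bases before it (10.3%). GAGGAA, the core of PU.1 sites, lies on the opposite strand from 209 bases before the start (23.3%), and TGTGGT, a RUNX site, on the opposite strand from 107 bases (14.5%). The STAT palindrome TTCCNGGAA was not among these letters (1.07% of promoters hold it). No 2 of these matches overlap, and a match is a string of letters and not a measured site.

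S100a8 was high in both reserve arrays, with deposited intensities of 13227 at 46 days and 16320 at 42 days. In hypertrophic arrays the intensity was 57.2 at 46 days and 4608 at 42 days. In perichondral arrays it was 7.86 at 46 days and 552 at 42 days. Proliferative arrays were the dimmest at both ages together, with 11.9 at 46 days and 12.4 at 42 days. Both reserve arrays thus lay above all 6 others, and the hypertrophic and perichondral zones each held 1 array at a clear signal or near the yardstick and 1 far below it.

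On the log2 scale S100a8 averaged 13.58 ± 0.03 (SD, n = 2) in reserve, 9.06 ± 4.30 in hypertrophic, 6.84 ± 3.33 in perichondral and 4.73 ± 0.16 in proliferative arrays. The SD in the hypertrophic and perichondral zones is as large as many of the differences between zones, so the order of those zones is not settled by 2 arrays each. Hypertrophic arrays lay above proliferative arrays for S100a8, while the perichondral arrays overlapped both, with a 46-day value of 4.49 that was the lowest of all 8. Only the reserve arrays and the 42-day hypertrophic array (12.10) exceeded the other-organ level.

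S100a9 had the same zone at the top, with intensities of 12861 at 46 days and 13925 at 42 days in reserve arrays. Hypertrophic arrays had 614 and 1095 at 46 and 42 days, and perichondral arrays 238 and 766. Proliferative arrays had 34.2 at 46 days and 57.4 at 42 days. Again both reserve arrays stood above the 6 others, and here both proliferative arrays stood below the 6 others (as in 3.53% of probe sets), with the hypertrophic and perichondral arrays in between and overlapping each other.

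S100a9 averaged 13.45 ± 0.15 (SD, n = 2) in reserve, 9.67 ± 0.66 in hypertrophic, 8.76 ± 1.23 in perichondral and 5.90 ± 0.65 in proliferative arrays. Hypertrophic exceeded perichondral by 0.91, which is within the spread of the perichondral arrays. The other neighbours in the order, reserve over hypertrophic (3.78) and perichondral over proliferative (2.86), differed by more than those SDs. Outside the reserve zone the 42-day hypertrophic (10.13) and 42-day perichondral (9.63) arrays were above the other-organ level, and the remaining 4 arrays were not.

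**Figure D1:**
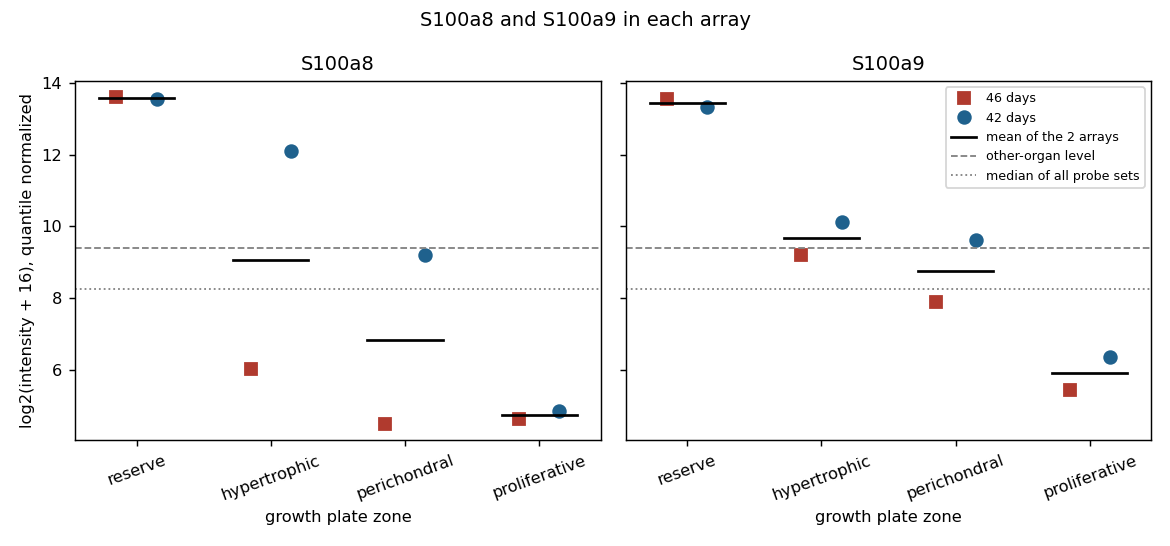
Each point is 1 array (squares 46 days, circles 42 days) of the zone on the x axis, and the y axis is log2(intensity + 16) after quantile normalization, with S100a8 on the left and S100a9 on the right. Black bars are the mean of 2 arrays, the dashed line is the other-organ level (9.41) and the dotted line the median of all probe sets (8.25). The 2 reserve arrays lie at 13.34 to 13.60 for both genes, and the ages part in the hypertrophic and perichondral zones for S100a8.

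Where an array of the other zone lay under the other-organ level, only a bound on the fold between zone means is given. That array was set to the level, a floor chosen after seeing the data. S100a8 was at least 18.0-fold higher in reserve than in proliferative arrays, at least 18.0-fold higher than in perichondral and at least 7.08-fold higher than in hypertrophic arrays. S100a9 was at least 16.5-fold higher than in proliferative, at least 15.2-fold higher than in perichondral and at least 12.8-fold higher than in hypertrophic arrays. These bounds are for means of 2 arrays, and the excess at 1 age can be smaller. At 42 days S100a8 was higher in reserve than in hypertrophic arrays by 1.45 log2 units. S100a9 was then higher by 3.21 than in hypertrophic and by 3.71 than in perichondral arrays. The measured log2 differences over proliferative, perichondral and hypertrophic arrays were 8.85, 6.74 and 4.52 for S100a8 and 7.55, 4.69 and 3.78 for S100a9. Their size depends on dim values, and with a pseudocount of 64 the reserve over proliferative differences were 7.36 for S100a8 and 6.68 for S100a9. By size of the reserve over proliferative difference the genes ranked 2 and 3 of 31042 probe sets, an order that rests on those dim values too. By the gap between the lower reserve array and the highest other array, S100a9 ranked 1 (3.21) and S100a8 ranked 51 (1.45), where the highest other array was the 42-day hypertrophic one. Such a gap above 0 was found in 1315 probe sets (4.24%). Zone means fell in the order reserve, hypertrophic, perichondral, proliferative in both genes, as in 1232 probe sets (3.97%).

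The ages tell how far each difference between zones rests on 1 array. At 46 days S100a8 was higher in reserve than in hypertrophic arrays by 7.58, at 42 days by 1.45. Against perichondral arrays the reserve excess was 9.11 at 46 days and 4.36 at 42 days, and against proliferative arrays 8.98 and 8.71. The reserve excess of S100a8 was thus present at both ages against each zone. Its log2 size over hypertrophic and perichondral arrays was much smaller at 42 days than at 46 days. Without the 46-day hypertrophic array the reserve excess over hypertrophic was 1.52, and without the 42-day one 7.53. Without the 46-day perichondral array the excess over perichondral was 4.39, and without the 42-day one 9.03.

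For S100a9 the reserve excess over hypertrophic and perichondral arrays varied less with age than that of S100a8, and that over proliferative arrays varied more. It was 4.35 at 46 days and 3.21 at 42 days over hypertrophic arrays, 5.66 and 3.71 over perichondral arrays, and 8.11 and 6.98 over proliferative arrays. The hypertrophic over proliferative difference of S100a9 was nearly equal at the 2 ages (3.76 at 46 days and 3.77 at 42 days), while that of S100a8 was 1.40 at 46 days and 7.26 at 42 days. Perichondral over proliferative, S100a9 differed by 2.45 at 46 days and 3.27 at 42 days, and S100a8 by -0.13 at 46 days and 4.35 at 42 days. The pair therefore shared the ends of the order, while the middle zones depended on age for S100a8. Over the 8 arrays the 2 genes correlated with Pearson's r = 0.919 and Spearman's rho = 0.929, which describes 4 zones in 2 arrays each that share their RNA for both genes.

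The difference between ages is not known to have been used in choosing the genes, and it was tested. S100a8 averaged 7.18 ± 4.34 (SD, n = 4) in 46-day arrays and 9.93 ± 3.84 in 42-day arrays. With zone as a covariate the difference was -2.74 (SE 0.85, 95% interval -4.53 to -0.96), lower at 46 days in 3 of 4 zones, with an adjusted p of 0.408 by limma (Benjamini-Hochberg, across the whole table). SEs and intervals are limma's, which borrow spread from other probe sets, so they are not the spread of this gene alone. The zone differences of S100a8 themselves ran from 0.05 to -6.08. S100a9 averaged 9.02 ± 3.40 in 46-day arrays and 9.87 ± 2.86 in 42-day arrays, a difference of -0.84 (SE 0.48, 95% interval -1.85 to 0.16), lower at 46 days in 3 of 4 zones (adjusted p = 0.667 by limma). Neither gene passed the threshold of 0.05. No probe set did in this fit (0%), with 2616 at an unadjusted p under 0.05 where 1552 would be expected by chance. Median-centred arrays gave 140 calls between ages and values as deposited gave 45, and under all 15 alternatives the adjusted p ran from 0.151 to 0.782 for S100a8 and from 0.535 to 0.927 for S100a9.

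By zone, the reserve arrays barely parted by age, at 0.05 for S100a8 and 0.21 for S100a9 (46 minus 42 days, 1 array each). In the proliferative zone the differences were -0.23 and -0.92. In the hypertrophic zone S100a8 differed by -6.08 and S100a9 by -0.93, and in the perichondral zone by -4.71 and -1.74. A difference at or under -4 was seen in 89 probe sets (0.287%) of the reserve zone, in 284 (0.915%) of the hypertrophic zone and in 117 (0.377%) of the perichondral zone. S100a8 was the only 1 of the pair to reach it, in both zones, as a comparison of single arrays with no replicate.

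**Figure D2:**
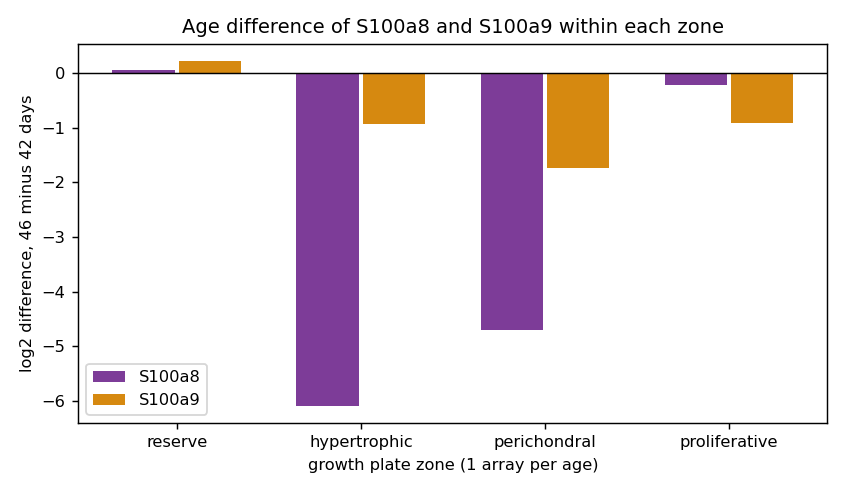
Bars give the log2 difference between the 46-day and the 42-day array of each zone for S100a8 and S100a9, with 1 array per age and so no error bar. S100a8 differs by -6.08 in the hypertrophic and -4.71 in the perichondral zone, and neither gene differs by more than 0.22 in the reserve zone.

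Macrophage, shared leukocyte and erythroid genes were also mostly lower in the 46-day than in the 42-day hypertrophic array. Of 18 macrophage and monocyte genes 14 were lower at 46 days there, with a median of -0.77 against -0.09 over all genes. Those at or under -4 were Lyz2, the lysozyme of phagocytes, Cd68, a lysosomal protein of macrophages, Csf1r, the receptor for their growth factor, and the Fc receptor Fcgr3a. Lyz2 was at 5.90 at 46 days and 13.35 at 42 days in hypertrophic arrays, and at 6.07 and 10.62 in perichondral arrays. In proliferative arrays it was at 5.18 and 9.90, and in reserve arrays at 13.30 and 12.54. Lyz2 thus parted by age in the 2 zones where S100a8 did, and also in the proliferative zone, where S100a8 did not. Over all zones its age difference was -3.99, with an adjusted p of 0.118 by limma.

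Of 14 shared leukocyte genes 13 were lower in the 46-day hypertrophic array (median -1.40), of 11 erythroid genes 10 (median -1.54) and of 18 neutrophil genes 14 (median -0.89), the last with 0 at or under -4. Genes outside blood moved as well, since 7 of 9 osteoblast and bone genes were lower there (median -3.18). So were 12 of 15 cartilage matrix genes (median -1.19) and 12 of 14 hypertrophic chondrocyte genes (median -1.55). Cartilage matrix genes were lower at 46 days in the other zones too. There 15 of 15 were lower in reserve (median -1.60), 15 of 15 in perichondral (-0.81) and 12 of 15 in proliferative arrays (-0.84). Endothelial genes (5 of 11 lower, median 0.27) and other-organ genes (10 of 30 lower, median 0.38) were not mostly lower in the hypertrophic zone. In the perichondral zone 7 of 18 macrophage and 7 of 18 neutrophil genes were lower at 46 days, and 9 of 14 shared leukocyte genes (median -1.08). Lists of other blood cells went the other way in the hypertrophic zone, with 3 of 9 lymphocyte genes lower at 46 days (median 1.23) and 1 of 8 eosinophil, basophil and mast cell genes (median 1.24). The beta-actin 3' to 5' ratio was 4.59 at 46 days and 1.71 at 42 days in hypertrophic arrays, and 0.557 and 1.64 in perichondral arrays. It was 4.56 and 1.85 in proliferative arrays and 2.32 and 4.65 in reserve arrays, 2 zones where S100a8 changed little with age. The part of these genes and of RNA quality in the age differences of S100a8 was not tested.

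Neutrophils are the main source of calprotectin in marrow and blood, so their other genes were followed. Of 32 listed neutrophil genes 18 could be followed by a probe set of their own. Not measured in this way were Mpo, Elane and Ltf, which mark neutrophil granules, and Ngp. Of the 18, 6 had both reserve arrays above all 6 other arrays (4.24% of all probe sets did). The summed deposited intensity of the 18 genes was 31505 and 31454 in reserve arrays at 46 and 42 days, 7357 and 10104 in hypertrophic, 6190 and 5483 in perichondral, and 5634 and 4667 in proliferative arrays. A few bright genes carried this sum. The 6 genes above the other-organ level in both reserve arrays (Mmp9, Np4, Defa5, RatNP-3b, Chi3l1 and Anxa1) made up 91.8% and 91.3% of it there. The other 12 genes summed to 2584 and 2729 in reserve arrays and to between 1493 and 3291 in the other 6. The split was made on reserve values, so these shares and sums follow in part from it. They are no separate result about the 12 genes.

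The 6 genes with both reserve arrays on top, named after their values were seen, were Defa5 and RatNP-3b, both alpha defensins, Anxa1, the phospholipid-binding annexin, Chi3l1, a chitinase-like glycoprotein of neutrophils and chondrocytes, Lcn2, an iron-carrier binding protein of granules, and Padi4, which converts arginine of histones to citrulline. Defa5 was at 12.88 and 10.95 in reserve arrays (46 and 42 days), 6.61 and 10.34 in hypertrophic, 7.16 and 6.12 in perichondral, and 7.82 and 6.15 in proliferative arrays. RatNP-3b was at 12.91 and 11.50 in reserve arrays and between 8.65 and 9.69 in the other 6. Both showed their highest value in the 46-day reserve array, and defensin genes are alike in sequence, so signal can be shared between them. Lcn2 was at 8.17 and 9.12 in reserve arrays and between 4.44 and 7.50 in the others, and Padi4 at 6.49 and 6.95, all under the other-organ level.

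By the sign of the mean difference, 17 of 18 neutrophil genes were higher in reserve than in hypertrophic arrays, 13 than in perichondral and 14 than in proliferative arrays, with medians of 0.87, 1.18 and 1.02. Among the genes named by rule, 3 were dim throughout. Mmp8, the collagenase of neutrophil granules, was at 5.13 and 4.99 in reserve arrays and between 4.63 and 6.15 elsewhere. Itgam, the integrin of myeloid cells, was at 5.0 and 5.45 in reserve arrays, against 7.69 in the 42-day proliferative array. The antimicrobial peptide gene Camp was at 8.92 and 8.69 in reserve arrays and up to 9.08 in proliferative arrays. None of these 3 reached the other-organ level in any array, so their values have little order.

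Mmp9, a gelatinase of neutrophils and osteoclasts, passed the test in 2 comparisons. It was at 12.09 and 13.30 in reserve arrays and 12.48 and 11.79 in hypertrophic arrays, against 5.70 and 5.48 in proliferative arrays. It rose by 7.11 (SE 0.93) in reserve over proliferative arrays with an adjusted p of 0.00655 by limma, and in hypertrophic over proliferative arrays with an adjusted p of 0.02505. It was the only 1 of 18 neutrophil genes called, and 7 probe sets (0.0226%) were called higher in reserve than in proliferative arrays and 3 (0.00966%) in hypertrophic than in proliferative arrays (4, or 0.0129%, in either direction). Between reserve and hypertrophic arrays Mmp9 differed by 0.56 (SE 0.93), and the 2 zones overlapped. Of 16 alternatives, the call held in 10 for reserve over proliferative arrays, lost without either reserve or either proliferative array. It held in 5 for hypertrophic over proliferative arrays, lost without any 1 array of the reserve, hypertrophic or proliferative zones.

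**Figure D3:**
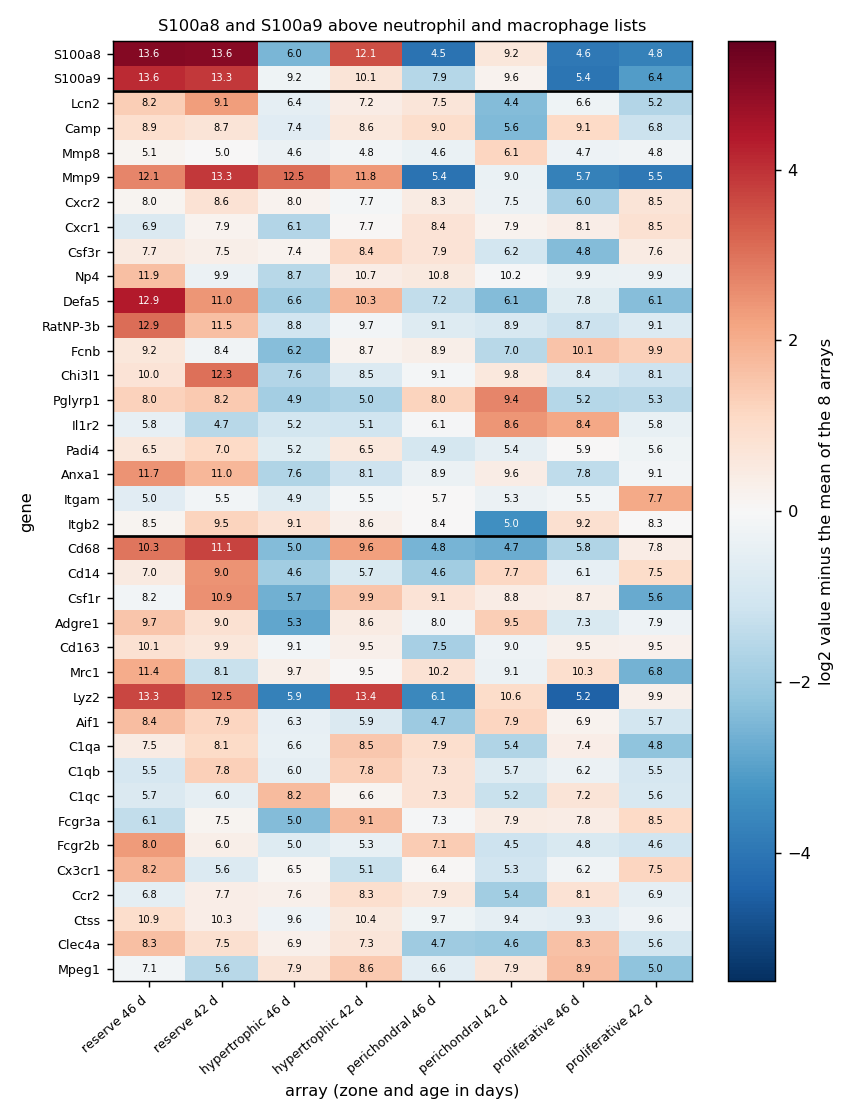
Rows are S100a8 and S100a9, the 18 measured neutrophil genes and the 18 measured macrophage and monocyte genes, and columns are arrays by zone and age. Colour is the log2 value minus the gene's mean over 8 arrays, and the printed value is log2(intensity + 16). Defa5, RatNP-3b and Anxa1 share the high reserve pair of columns, and Lyz2 is high in the 42-day hypertrophic array (13.35) and low in the 46-day one (5.90), as is S100a8.

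Of 18 macrophage and monocyte genes, 3 had both reserve arrays above all others (4.24% of all probe sets did). None was called between zones or ages, which is near the share over all probe sets (at most 0.029% in any zone pair, 0% between ages). With the 42-day reserve array dropped, 9 genes had the 1 reserve array left on top. That criterion is easier to meet, and its share over all probe sets was not computed. Cd68 was at 10.35 and 11.13 in reserve arrays, 5.03 and 9.64 in hypertrophic, 4.85 and 4.66 in perichondral, and 5.77 and 7.81 in proliferative arrays. Csf1r was at 8.21 and 10.87 in reserve arrays and at 5.72 and 9.87 in hypertrophic arrays, so these 2 zones overlapped. The summed intensity of the list was 20553 and 16801 in reserve arrays and 3605 and 18214 in hypertrophic arrays at 46 and 42 days, against 3762 to 5444 in the perichondral and proliferative zones. Median differences of this list were 0.75 for reserve over hypertrophic, 1.04 over perichondral and 1.14 over proliferative arrays, beside medians of 0.07, 0.05 and 0.06 over all genes.

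Among 14 genes of leukocytes in general 0 were called, near the share over all probe sets (at most 0.029% in any zone pair). Both reserve arrays were on top in 5 of the 14 (as in 4.24% of all probe sets). The count was 9 when the 42-day hypertrophic array was dropped, an easier criterion whose share over all probe sets was not computed. Ptprc, the CD45 phosphatase of leukocytes, was at 9.80 and 9.38 in reserve arrays but at 10.56 in the 42-day hypertrophic array. Rac2, a GTPase of leukocytes, was at 9.39 and 8.86 in reserve arrays and 5.85 to 8.83 elsewhere, all under the other-organ level. The phagocyte oxidase is known to be assisted by S100a8 and S100a9. Of its 5 measured genes 2 had the reserve arrays on top (4.24% of all probe sets did). They were Rac2, which is also counted among the leukocyte genes above, and Cybb, the catalytic subunit. Cybb was at 10.43 and 10.10 in reserve arrays against 7.23 to 9.10 elsewhere. Only 1 of the 5 genes exceeded the other-organ level in any array. Ncf1, an activating subunit, was at 5.94 and 5.54 in reserve arrays and 8.79 and 8.58 in hypertrophic arrays, all under the other-organ level. By sign, 4 of the 5 oxidase genes were higher in reserve than in hypertrophic arrays, 4 than in perichondral and 3 than in proliferative arrays, with medians of 0.88, 1.55 and 1.503.

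Other blood and vessel genes shared the reserve zone in part. Beside 4.24% of all probe sets, both reserve arrays were on top in 4 of 11 erythroid genes, 3 of 10 osteoclast genes and 3 of 11 endothelial genes, and in 0 of 15 cartilage matrix, 0 of 9 bone, 0 of 9 lymphocyte, 0 of 8 platelet, 0 of 8 eosinophil, basophil and mast cell and 0 of 30 other-organ genes. In lists this short a count of 0 is near that share. With an array dropped the criterion is easier to meet, and its share over all probe sets was not computed. The counts were then 8 erythroid genes (42-day reserve array dropped) and 6 osteoclast genes (42-day hypertrophic array dropped). Bone genes were also higher in the reserve zone by sign, 8 of 9 over hypertrophic, 7 of 9 over perichondral and 8 of 9 over proliferative arrays (medians 1.53, 1.41 and 3.30), and osteoclast genes in 10, 10 and 9 of 10 (medians 1.23, 1.64 and 3.22). The erythroid medians were 0.97, 1.47 and 1.11. Hbb, beta globin, was at 11.23 and 10.68 in reserve arrays and up to 10.83 in a proliferative array. The summed erythroid intensity was 50673 and 31750 in reserve arrays, against 4327 and 18182 in hypertrophic, 4693 and 11100 in perichondral, and 5785 and 3415 in proliferative arrays. How far the content of blood and marrow cells sets the reserve levels of S100a8 and S100a9 was not tested.

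Among chondrocyte genes, 3 passed the test between zones besides Mmp9. Col10a1 encodes collagen X, typical of hypertrophic cartilage. It was at 10.88 and 11.78 in reserve arrays and 15.26 and 16.93 in hypertrophic arrays, a log2 difference of -4.77 for reserve over hypertrophic (adjusted p = 0.0233 by limma), and 1 probe set (0.00322%) was called in that direction. Mmp13, the collagenase of late chondrocytes and osteoblasts, was at 14.73 and 14.75 in reserve arrays and 14.09 and 14.73 in hypertrophic arrays, against 8.57 and 8.65 in proliferative arrays (adjusted p = 0.000948 for reserve and 0.00411 for hypertrophic over proliferative arrays by limma). Mmp13 differed by 0.33 (SE 0.66) between reserve and hypertrophic arrays. Ucma, a matrix protein of resting and upper cartilage, rose by 5.67 in reserve over hypertrophic arrays (adjusted p = 0.00665 by limma), where 6 probe sets (0.0193%) were called higher, and fell in hypertrophic against perichondral arrays, where 9 probe sets (0.029%) were called, all lower in hypertrophic arrays. These calls rest on single arrays and settings. Of 16 alternatives, Col10a1 was called in 5 and Ucma in 9 for reserve over hypertrophic arrays, both lost without the 42-day reserve array and without either perichondral array, and Ucma also without the 46-day hypertrophic array and Col10a1 also without the 46-day reserve array or either proliferative array. Ucma in hypertrophic over perichondral arrays was called in 12, lost without either perichondral array. Mmp13 was called in 13 for reserve over proliferative arrays, lost without the 42-day reserve or the 46-day proliferative array, and in 11 for hypertrophic over proliferative arrays, lost without either proliferative array. Of the hypertrophic chondrocyte list, 0 of 14 measured genes had both reserve arrays above all others, which is near the 4.24% of all probe sets.

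Receptors through which calprotectin acts showed no call in any comparison of zones. That is near the share over all probe sets, of which at most 0.029% were called in any zone pair. Tlr4, Toll-like receptor 4, was at 8.38 and 8.83 in reserve arrays, 8.75 and 8.01 in hypertrophic, 7.93 and 7.48 in perichondral, and 8.50 and 7.94 in proliferative arrays, below the other-organ level throughout. Ager, the receptor for advanced glycation end products, was at 6.12 and 6.06 in reserve arrays and between 4.95 and 8.66 elsewhere. Bsg, an immunoglobulin-like receptor that binds S100A9, was at 7.47 and 9.38 in reserve arrays and between 7.97 and 9.60 elsewhere. For none of these 3 receptors did the reserve arrays stand apart from the other 6 as a pair.

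Co-receptors and adaptors were followed as well. Cd14, the co-receptor of Tlr4, was at 7.03 and 9.02 in reserve arrays and up to 7.69 elsewhere, and Ly96, the partner of Tlr4, at 9.61 and 9.93 in reserve arrays and between 7.85 and 9.62 elsewhere. Of all 11 receptor and adaptor genes, only Irak1, a kinase of the pathway, had both reserve arrays on top (9.75 and 9.78, with 7.21 to 9.38 elsewhere). In a list this short 1 gene is near the share of 4.24% over all probe sets. The list's median difference was 0.22 for reserve over hypertrophic, 0.60 over perichondral and 0.07 over proliferative arrays.

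Inflammatory genes downstream of Toll-like receptors gave 0 of 15 with both reserve arrays on top, which is near the 4.24% of all probe sets. They gave 0 called, which is near the share over all probe sets too (at most 0.029% in any zone pair). Il1b, the cytokine interleukin 1 beta, was at 7.98 and 7.13 in reserve arrays, 7.20 and 6.24 in hypertrophic, 5.79 and 5.62 in perichondral, and 6.62 and 4.94 in proliferative arrays, all under the other-organ level. The list's median difference was -0.62 for reserve over hypertrophic, -0.28 over perichondral and 0.10 over proliferative arrays. By sign, 4 of 15 were higher in reserve than in hypertrophic arrays, 7 than in perichondral and 9 than in proliferative arrays.

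Among 11 measured transcription factors of myeloid cells, 0 were called and 1, Cebpd, had both reserve arrays on top (9.52 and 9.53, with 5.40 to 9.46 elsewhere). For so short a list that count is near the 4.24% of all probe sets. The 0 called is near the share over all probe sets as well (at most 0.029% in any zone pair). Cebpe, which drives late neutrophil maturation, was at 5.71 and 8.13 in reserve arrays and 7.51 to 9.13 elsewhere. Cebpb, a factor of monocytes, was at 5.30 and 6.51 in reserve arrays and 4.51 to 8.06 elsewhere. Both stayed below the other-organ level in all 8 arrays, so their zones cannot be ordered here.

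Of 12 other S100 genes of the family list, 8 had a higher mean in reserve than in hypertrophic arrays, 8 than in perichondral and 7 than in proliferative arrays. The medians were 0.67, 0.51 and 0.47, beside 0.07, 0.05 and 0.06 over all genes, and 2 of the 12 had both reserve arrays on top (4.24% of all probe sets did). Of the 8 other measured genes in the run from S100a1 to S100a9, 1 had both reserve arrays on top. That gene was S100a4, a protein of motile and fibroblastic cells, at 9.73 and 9.94 in reserve arrays, 6.63 and 8.40 in hypertrophic, 7.51 and 7.94 in perichondral, and 5.31 and 5.94 in proliferative arrays. Its order of zones differs from that of S100a8 and S100a9 in the 46-day hypertrophic array, which was below both perichondral arrays. Its reserve over proliferative difference was 4.21 (SE 1.08), with an adjusted p of 0.338 by limma.

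S100a3 was at 8.22 and 7.56 in reserve arrays and 5.57 to 7.59 elsewhere. S100a6, the closest measured gene on the S100a8 side, was at 6.68 and 6.67 in reserve arrays and 4.70 to 9.27 elsewhere, and S100a5 at 7.57 and 7.25 and 5.33 to 8.17. S100a1 was lower in reserve arrays (8.07 and 7.95) than in each of the other 6 (8.39 to 9.82). Outside the run, S100a11 was at 10.01 and 10.15 in reserve arrays and 8.12 to 9.72 elsewhere, and S100a10 at 10.85 and 10.70 with 10.21 to 11.90 elsewhere. S100b, a marker of cartilage and glia, was at 8.94 and 11.37 in reserve arrays and 7.58 to 10.36 elsewhere. S100a13 (5.37 and 8.43), S100a14 (7.96 and 5.75), S100a16 (8.68 and 5.63), S100g (7.91 and 5.23), S100a7l2 (5.14 and 5.33) and S100vp (6.86 and 7.42) are given with their reserve values. None of these had both reserve arrays on top, and all 6 were under the other-organ level in every array. None of the other S100 genes was called between zones, where at most 0.029% of all probe sets were called in any pair. Between ages no S100 gene was called, S100a8 and S100a9 included, as was no probe set at all (0%).

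**Figure D4:**
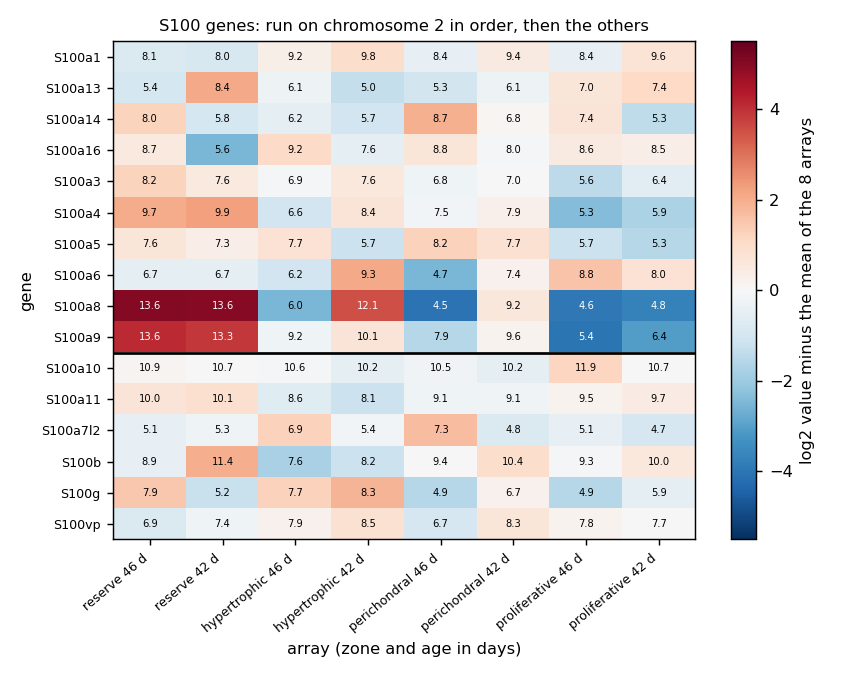
Rows are the measured S100 genes of the run on chromosome 2 in the order of RefSeq's map, then the other measured S100 genes, and columns are arrays by zone and age. Colour is the log2 value minus the gene's mean over 8 arrays, and the printed value is log2(intensity + 16). S100a8 and S100a9 carry the strongest colours, S100a4 follows at 9.73 and 9.94 in reserve arrays, and S100a6, the nearest measured gene on the S100a8 side, is at 6.68 and 6.67 there.

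The genes most like the pair were sought among 9626 genes with a range of at least 2 log2 units and a highest value above the median of all probe sets. Likeness was the lower of the 2 correlations with S100a8 and S100a9 over the 8 arrays. In order they were Tpm4, a tropomyosin (0.953), P2ry10, a receptor of lymphocytes (0.939), Trim24 (0.933), the erythrocyte membrane protein gene Epb41 (0.933), Fam168b (0.928), Smap1 (0.925), S100a4 (0.912), the ion cotransporter Slc12a2 (0.910), the chromatin remodeller Baz1b (0.909) and B2m, the light chain of class I histocompatibility molecules (0.909). These values describe 8 arrays that share zone and age, and the highest of 9626 will be high in any such set.

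B2m was at 12.44 and 12.68 in reserve arrays, 8.58 and 10.30 in hypertrophic, 8.85 and 9.14 in perichondral, and 7.74 and 9.02 in proliferative arrays. Tpm4 was at 11.27 and 11.07 in reserve arrays, 9.90 and 10.42 in hypertrophic, 9.09 and 10.48 in perichondral, and 9.12 and 9.05 in proliferative arrays. Each had both reserve arrays on top and a 42-day value above the 46-day value in the hypertrophic and perichondral zones, as S100a8 had. The size was smaller, at 4.18 for B2m and 2.09 for Tpm4 for reserve over proliferative arrays, and neither passed the test (adjusted p = 0.0563 and 0.451 by limma).

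**Figure D5:**
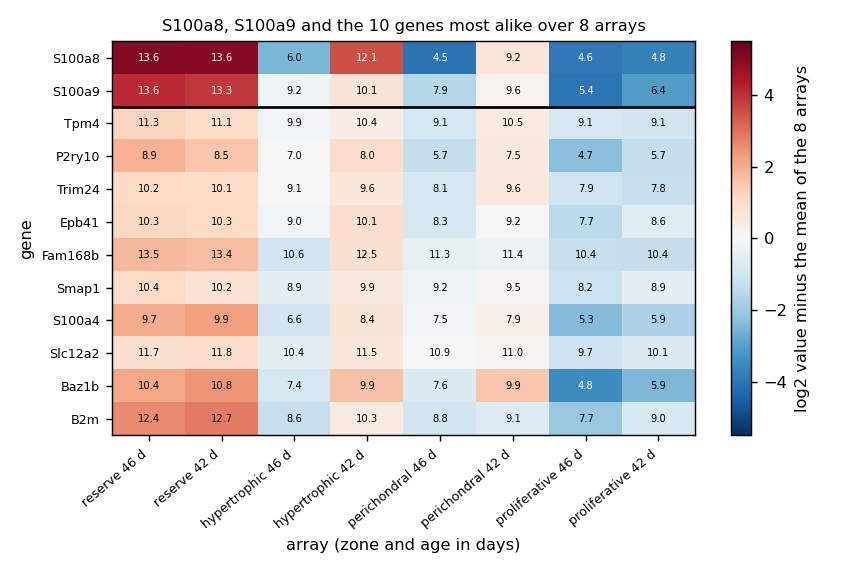
Rows are S100a8, S100a9 and the 10 genes with the highest likeness to both, and columns are arrays by zone and age. Colour is the log2 value minus the gene's mean over 8 arrays, and the printed value is log2(intensity + 16). All 10 are highest in the 2 reserve columns, with B2m at 12.44 and 12.68, and the widest range among them is below that of S100a8 (9.11).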

How the data were processed

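RNA was extracted on Qiagen RNeasy columns, amplified with the Nugen Ovation method and labelled with biotin, per the labels' protocols. The authors deposited linear intensities for 31099 probe sets. Among the tools in the submitters' processing notes are MAS5, GCOS and RMA, with their roles not given in the sources used here. Precision is limited by how few arrays there are.

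From these intensities 57 control probe sets were left out. Array medians of log2(intensity + 16) differed by up to 0.589, so arrays were quantile normalized with limma 3.58.1 in R 4.3.3. Zone means were estimated jointly over the 8 arrays (lmFit and eBayes with a variance trend, 4 residual degrees of freedom). Zones were compared in 6 pairs and ages with zone as covariate, with Benjamini-Hochberg adjustment over 31042 probe sets and a threshold of 0.05. SEs and intervals come from these fits, which borrow spread from other probe sets. The code was tested on simulated data. Replicates are pools that also differ in age. The p-values between zones rest on that spread and on spread borrowed from other probe sets. In the age fit a gene's own spread is how far its age difference varies between zones.

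Symbols came from the platform annotation, updated through gene identifiers of the RefSeq table (GRCr8), which matched for 20764 probe sets: 20826 have 1 symbol, 436 several and 9780 none. Genes of lists used the probe set with the highest mean. The members, the 18 lists and the rule for named genes (the pair, the 10 most alike, a set of marker and receptor genes, measured S100 genes, and list genes past the threshold) were chosen with earlier results of these data known. Every other gene named in the text was chosen after its values were seen. Alternatives tried were scaling, pseudocount, a filter on dim probe sets, the variance trend, age as a block, fewer arrays and leaving out each array.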

Additional observations from a re-analysis of the deposited data

Results flagged for a closer look

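In 3 results the effect had opposite signs in different zones or ages, with 1 array behind each value, and the difference was not tested. S100a8 differed between 46 and 42 days by 0.045 in the reserve zone and by -0.23 to -6.08 in the 3 other zones. S100a9 differed by 0.214 in the reserve zone and by -0.92 to -1.74 in the 3 others. Both reserve values are small beside those of the other zones. Perichondral over proliferative, S100a8 differed by -0.133 at 46 days and by 4.35 at 42 days. The 46-day perichondral intensity of 7.86 and the proliferative ones of 11.9 and 12.4 are all dim.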

How the results depend on the processing

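The reserve excess of both genes kept its sign under every scaling, pseudocount and left-out array tried. With values as deposited, S100a8 in reserve over proliferative arrays differed by 9.03, with median-centred arrays by 9.30, with a pseudocount of 1 by 10.07 and of 64 by 7.36. For S100a9 it was 8.05 median-centred and 6.68 with a pseudocount of 64, where hypertrophic over proliferative was 2.98. The cause of other changes was not tested.

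Leaving out 1 array gave S100a8 ranges of 1.52 to 7.53 for reserve over hypertrophic, 4.39 to 9.03 over perichondral and 8.77 to 8.95 over proliferative, 1.30 to 7.43 for hypertrophic over proliferative, -0.81 to 5.32 over perichondral (reversed in 2 cases) and -0.25 to 4.47 for perichondral over proliferative (reversed in 1). For S100a9 they were 3.40 to 4.22, 3.82 to 5.49, 7.19 to 7.97, 3.29 to 4.26, 0.04 to 1.77 and 1.99 to 3.74 in the same order. The age difference ran from -3.68 to -1.63 for S100a8 and from -1.19 to -0.54 for S100a9.

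Calls across all probe sets depended on the settings. As deposited, 14 were called in reserve over proliferative and 45 between ages. Median-centred, there were 1 for reserve over hypertrophic, 1 for hypertrophic over perichondral, 0 for hypertrophic over proliferative and 140 between ages. A pseudocount of 1 gave 2 for hypertrophic over proliferative, and 64 gave 16 for reserve over proliferative and 5 between ages. Only probe sets above the median gave 2 for reserve over hypertrophic, 3 over proliferative, 2 for hypertrophic over perichondral and 0 over proliferative, and no variance trend gave 0 for each of these 4. Fits of only the 4 arrays compared gave 0 for reserve over hypertrophic, 9 over perichondral, 27 over proliferative and 1 for hypertrophic over proliferative. Leaving out 1 array gave 0 to 167 for reserve over hypertrophic, 0 to 1 over perichondral, 0 to 45 over proliferative, 0 to 50 for hypertrophic over perichondral, 0 to 12 over proliferative, 0 to 5 for perichondral over proliferative and 0 to 5 between ages. List genes with both reserve arrays on top, a count added after seeing the data, ran with 1 array left out from 6 to 9 for neutrophil, 3 to 9 for macrophage, 5 to 9 for shared leukocyte, 4 to 8 for erythroid, 3 to 6 for osteoclast and 2 to 4 for S100 genes, and with values as deposited there were 2 macrophage and 4 shared leukocyte genes. Leaving out an array makes this criterion easier to meet, and the matching share over all probe sets was not computed.

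Age as a replicate block gave 38, 3 and 60 calls for reserve over hypertrophic, perichondral and proliferative, 55 and 11 for hypertrophic over perichondral and proliferative and 13 for perichondral over proliferative. The age differences of the zones correlated across probe sets by 0.0225 to 0.0806. That range covers all probe sets, dim ones included, and cannot tell whether some genes share an age difference. Cartilage matrix genes were lower at 46 days in every zone (15 of 15 in reserve and perichondral, 12 of 15 in hypertrophic and proliferative arrays). Other-organ genes were not (10 to 20 of 30). The main zone fit left age out, so any shared age difference stayed in its spread. Low signal outside the reserve zone limits the size of the differences.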
